A study of Homo sapiens with 36 samples.

Results

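The 10 genes described here encode an innate immune receptor, a set of secreted inflammatory mediators, feedback proteins of the NF-kB pathway and a mitochondrial enzyme. They are the receptor TLR4, the pentraxin PTX3, the chemokines CXCL8, CXCL1, CXCL2 and CCL2, the cytokine IL6, and the NF-kB induced genes NFKBIA, TNFAIP3 and SOD2. They were chosen by symbol from a table of 25344 gene symbols, and all 10 had counts in it. Of these, 7 passed the filter on low counts and were among the 9847 genes tested. CXCL2, CCL2 and TNFAIP3 did not pass and are given mainly by their raw counts.

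RNA-seq was performed on HMC3, an established human cell line that the labels call microglial, grown in DMEM with fetal bovine serum. Cells received vehicle control or perfluorooctane sulfonate (PFOS), a persistent fluorinated surfactant, at 25 or 50 µM for 24 h. One set was collected at once, and in the other the PFOS medium was replaced by PFOS-free medium for 24 h of recovery. This gave 6 groups of 3 libraries, which the labels call biological replicates. The labels do not say whether the 3 replicates of a group were grown apart, and p-values then cover only the spread among these libraries, which may be technical. They do not name the vehicle either.

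TLR4 sits at the cell surface and, with its partner MD-2 (LY96) and CD14, senses bacterial lipopolysaccharide. Its adaptors pass the signal to the IKK kinases, which release NF-kB dimers from their inhibitor IkBα, the product of NFKBIA. NF-kB then drives chemokines, IL6 and PTX3, and also NFKBIA and TNFAIP3 (A20), which shut the pathway down, and SOD2, the mitochondrial superoxide dismutase. CXCL8, CXCL1 and CXCL2 attract neutrophils, CCL2 attracts monocytes, and PTX3 is a secreted pattern recognition protein made at sites of inflammation. In microglia these genes belong to the classical response to danger signals.

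The promoters below show which of these genes carry the letters of an NF-kB site next to their start. Each is the stretch of 150 bases directly upstream of a RefSeq transcription start in GRCh38.p14, and 9 of the 10 genes had such a window in the RefSeq table. The 6 windows printed lie just outside the gene's span. Capitals mark matches to the NF-kB consensus, to GGNNTTTCC (a shorter variant that includes the kB element of CXCL8 and can overlap the consensus) or to TGANTCA (the AP-1 form), searched on both strands. The windows are chr3:157436700-157436849 for PTX3, chr4:73740419-73740568 for CXCL8, chr4:73869243-73869392 for CXCL1, chr7:22727050-22727199 for IL6 and chr9:117704253-117704402 for TLR4, all on the plus strand. That of CXCL2 is chr4:74099196-74099345 on the minus strand.
PTX3: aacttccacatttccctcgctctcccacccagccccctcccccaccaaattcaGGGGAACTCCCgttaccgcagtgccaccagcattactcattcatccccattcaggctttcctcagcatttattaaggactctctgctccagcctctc
CXCL8: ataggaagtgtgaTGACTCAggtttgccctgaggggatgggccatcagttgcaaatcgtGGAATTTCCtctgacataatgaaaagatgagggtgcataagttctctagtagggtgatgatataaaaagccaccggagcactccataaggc
CXCL1: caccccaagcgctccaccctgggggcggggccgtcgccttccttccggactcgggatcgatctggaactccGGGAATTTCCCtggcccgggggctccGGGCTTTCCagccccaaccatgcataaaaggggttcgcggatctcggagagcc
CXCL2: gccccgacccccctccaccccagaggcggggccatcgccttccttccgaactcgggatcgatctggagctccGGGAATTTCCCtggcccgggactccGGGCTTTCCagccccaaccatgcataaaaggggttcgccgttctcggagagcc
IL6: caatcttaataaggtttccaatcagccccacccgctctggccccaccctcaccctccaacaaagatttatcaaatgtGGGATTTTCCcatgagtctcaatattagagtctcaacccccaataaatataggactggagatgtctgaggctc
TLR4: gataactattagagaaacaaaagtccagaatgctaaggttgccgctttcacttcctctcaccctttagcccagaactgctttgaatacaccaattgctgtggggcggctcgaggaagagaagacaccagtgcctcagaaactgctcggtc

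In the PTX3 window the NF-kB consensus lay at -97 to -87 from the start. CXCL8 held GGAATTTCC at -91 to -83, with TGACTCA at -137 to -131 and a TATAAA box, searched on the plus strand and left in lower case, at -31 to -26. CXCL1 and CXCL2 each held a consensus match, at -79 to -69 and -78 to -68, and GGGCTTTCC at -53 to -45 in both. Their 2 windows were 88.7% identical when aligned (134 of 151 columns), against 47.3% for CXCL8 with CXCL1. IL6 had 1 consensus match at -73 to -64 and NFKBIA 1 at -81 to -72. The TNFAIP3 window (chr6:137867109-137867258) belongs to a start inside the gene's span and held 2 matches, at -67 to -58 and -55 to -46 from that start. The TLR4 window and the 4 SOD2 windows, of which 3 belong to starts inside the gene's span, held no NF-kB consensus and no GGNNTTTCC. Over all 35116 windows of 150 bases, 6.19% held the consensus, 3.46% GGNNTTTCC, 4.17% TGANTCA and 4.54% TATAAA. A match is a description of the letters and not a bound site.

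Levels are given as CPM (counts scaled to a common library size), and changes as log2 fold change ± standard error (SE) with a p-value adjusted over all 9847 genes. A gene is called where that adjusted p is under 0.05. Library totals ranged from 582233 to 4346627 counts, so 1 count was worth between 0.223 and 1.68 CPM, and several of these genes rest on fewer than 10 counts in a library. Of 18 microglia and macrophage markers, 8 had no count in any library, among them AIF1, CX3CR1 and TYROBP, and 2 passed the filter. Fibroblast and pericyte markers were present, with 9 of 12 passing the filter and a summed level of 2979 to 3160 CPM in vehicle at 24 h. The label microglial is therefore kept as the submitters' name of the line.

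At 24 h, PTX3 showed the largest response of the 7 tested genes. The gene lies at chr3:157436850-157443633. PTX3 stood at 5.88, 10.8 and 14.4 CPM in the 3 vehicle libraries (5, 30 and 49 counts). With 25 µM PFOS it stood at 41, 41.3 and 40.9 CPM (57, 153 and 65 counts). With 50 µM it reached 223, 210 and 265 CPM (215, 194 and 519 counts). The 3 groups did not overlap, and every library at the higher dose stood above every library at the lower dose. The means were 10.4 ± 4.29, 41.1 ± 0.198 and 232 ± 28.7 CPM (SD, n = 3). The SD at 25 µM is below the counting error of 57, 153 and 65 counts, so it is not a measure of precision. PTX3 rose by 1.83 ± 0.26 at 25 µM (adjusted p = 0.000335) and by 4.34 ± 0.25 at 50 µM (adjusted p = 2.08e-10), a 20.2-fold change. The step from 25 to 50 µM was itself 2.50 ± 0.22 (adjusted p = 3.84e-07). These 3 calls held in every alternative run. In a bulk sample, a change in the number of cells that make a transcript and a change in its amount per cell cannot be told apart. This applies to these changes and to all changes below.

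After 24 h without PFOS the PTX3 level stood closer to vehicle. Vehicle libraries stood at 11.5, 11.5 and 10.5 CPM, those after 25 µM at 18.4, 16.3 and 9.72 CPM, and those after 50 µM at 20.9, 31.9 and 12.5 CPM (18, 35 and 9 counts). The 25 µM group overlapped its vehicle group (0.42 ± 0.29, adjusted p = 0.829), whereas the 50 µM group lay just above it. PTX3 was still higher after 50 µM by 1.01 ± 0.30 (adjusted p = 0.0156), 2.02-fold. That call was lost without 50 µM replicate 2 (0.60, adjusted p = 0.254), with thinned libraries (0.72, adjusted p = 0.171) and with only the libraries of the contrast (adjusted p = 0.109). The 50 µM effect had shrunk by 3.32 ± 0.39 on the log2 scale between 24 h and recovery (adjusted p = 1.39e-05). At 25 µM the corresponding difference of -1.41 ± 0.39 did not pass (adjusted p = 0.313). Ordered by group mean, PTX3 ran from 50 µM at 24 h, through 25 µM at 24 h, 50 µM after recovery and 25 µM after recovery, to the 2 vehicle groups. Neighbours in this order overlapped from 50 µM after recovery downwards.

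**Figure D1:**
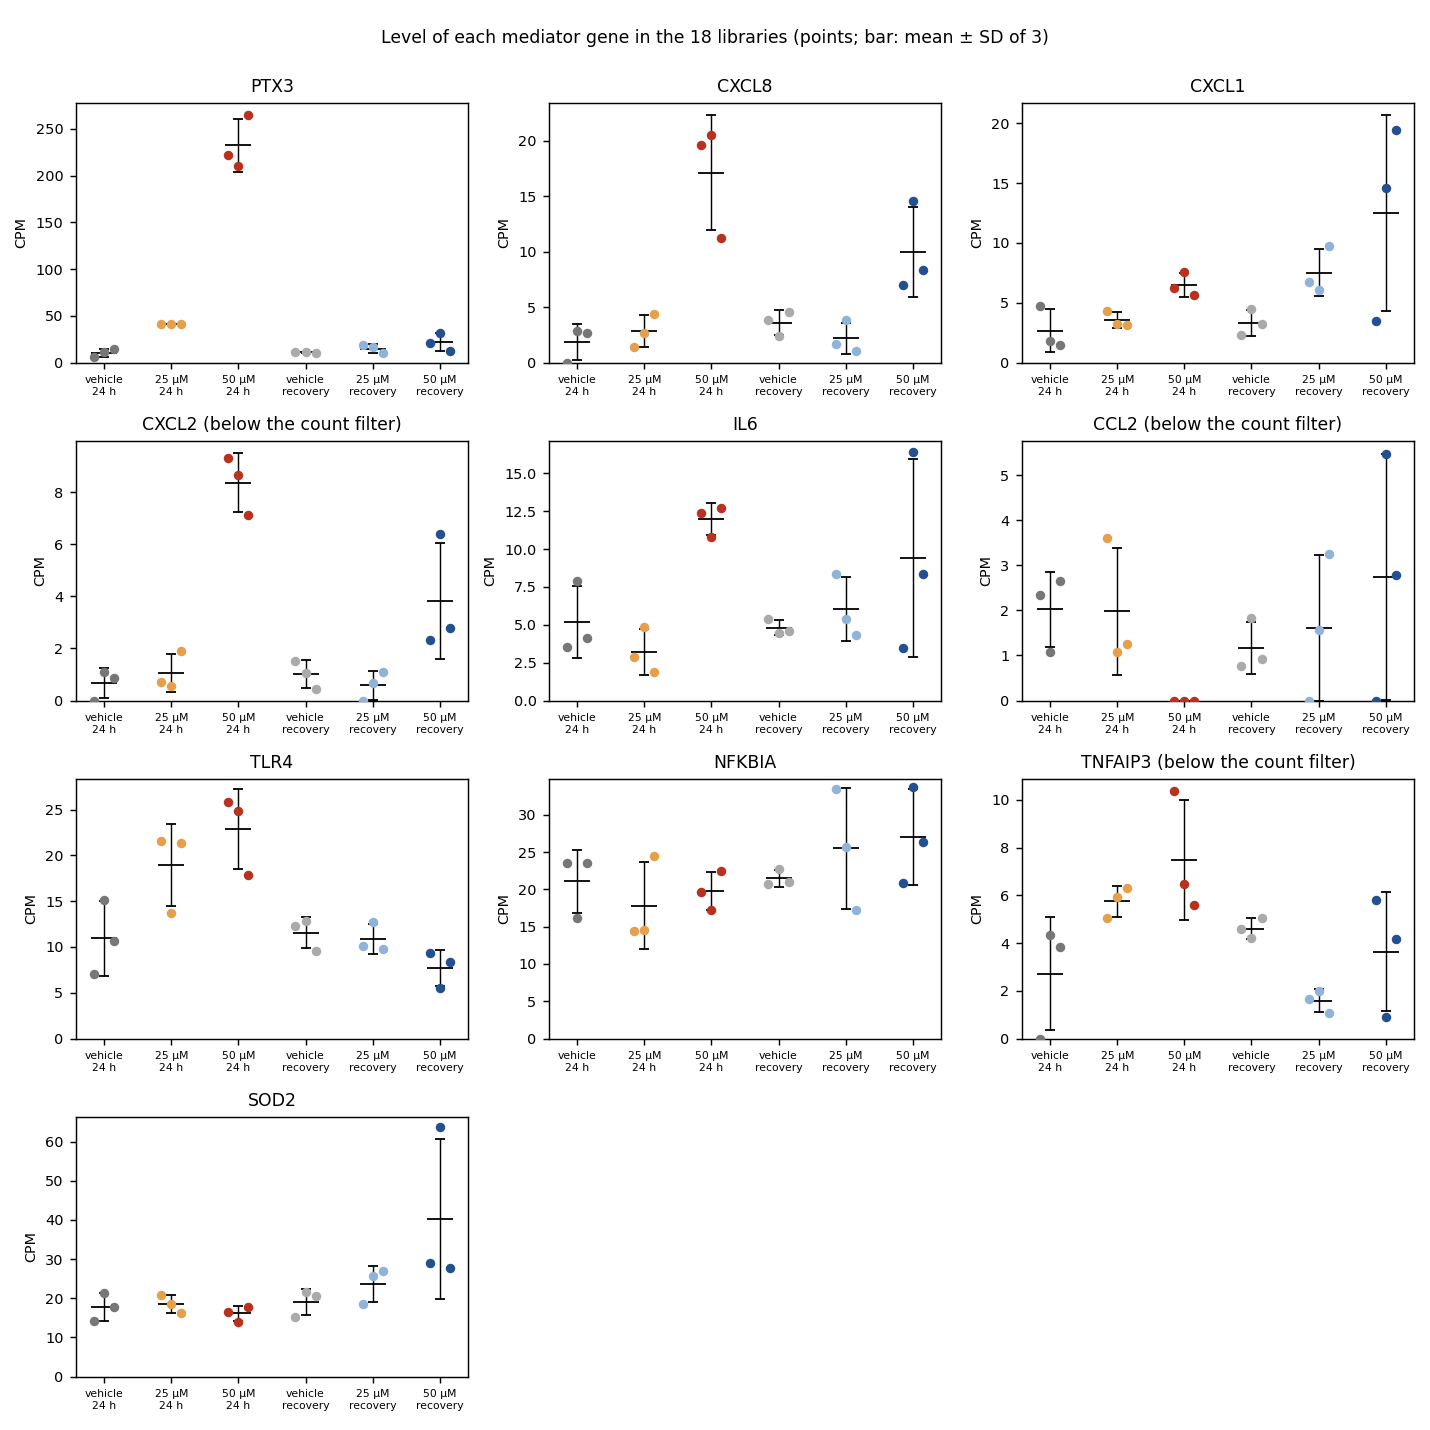
Level of all 10 genes in CPM (y axis) in each of the 6 groups (x axis), with 1 point per library and the mean ± SD of 3 libraries. Error bars that would pass below 0 are cut there, and CXCL2, CCL2 and TNFAIP3 were below the count filter. PTX3 rose with dose at 24 h to a mean of 232 CPM and stood at 21.8 CPM after recovery from 50 µM, while NFKBIA stayed between group means of 17.8 and 27 CPM.

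TLR4 was measured with fewer counts and a smaller change. The gene lies at chr9:117704403-117724735. TLR4 stood at 7.06, 15.1 and 10.6 CPM in vehicle at 24 h (6, 42 and 36 counts). It stood at 21.6, 13.8 and 21.4 CPM with 25 µM PFOS and at 25.9, 24.9 and 17.8 CPM with 50 µM (25, 23 and 35 counts). All libraries at 50 µM were above all vehicle libraries, and 1 library at 25 µM fell within the vehicle range. TLR4 rose 1.90-fold at 50 µM (0.93 ± 0.29, adjusted p = 0.0261). At 25 µM its change was 0.64 ± 0.28 (adjusted p = 0.463), and the step from 25 to 50 µM was 0.28 ± 0.27 (adjusted p = 0.609, 95% interval -0.29 to 0.85). The call at 50 µM was lost without vehicle replicate 1 or 3 or without 50 µM replicate 1 or 2, with adjusted p between 0.0658 and 0.109 and a change of at least 0.81, and with all libraries thinned to the shallowest (adjusted p = 0.123).

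In recovery TLR4 was not higher after PFOS. It stood at 12.3, 12.8 and 9.61 CPM in vehicle, at 10.1, 12.7 and 9.72 CPM after 25 µM, and at 9.3, 5.47 and 8.34 CPM after 50 µM (8, 6 and 6 counts). The 3 libraries after 50 µM were the 3 lowest of the 9 recovery libraries, but TLR4 was not called there (-0.62 ± 0.37, adjusted p = 0.210). The 50 µM effect at recovery was below that at 24 h by 1.55 on the log2 scale (SE 0.46, adjusted p = 0.0236). That difference was not called without vehicle replicate 3 or 50 µM replicate 1 at 24 h, nor without vehicle replicate 2 or 50 µM replicate 2 at recovery (adjusted p from 0.0531 to 0.0846), nor with thinned libraries (adjusted p = 0.0724).

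The partners of TLR4 were close to undetected. Over all 18 libraries LY96 had 12 counts in total and CD14 had 49, with at most 10 in a library, and neither was tested. TLR2 had 8 counts. Of the cytosolic adaptors, MYD88 was well measured, with 1775 counts, while TIRAP had 269 and TICAM2 had 0 and was not tested. TIRAP, the adaptor that links TLR4 to MYD88, rose by 1.26 ± 0.40 at 50 µM (adjusted p = 0.0302), and NLRP3, the sensor of the inflammasome, by 1.37 ± 0.45 (adjusted p = 0.0384). The TIRAP call was lost without any 1 vehicle library or 50 µM replicate 1 or 3 (adjusted p up to 0.151), and the NLRP3 call without vehicle replicate 1 or 3 or 50 µM replicate 1 or 2 (up to 0.188). Of the 30 innate receptors and adaptors listed, 11 were tested, of which these 2 were higher and 0 lower at 50 µM and 24 h. In that comparison 9.18% of all genes were called higher and 18.8% in either direction. In recovery from 50 µM 0 of the 11 passed, where 17.7% of all genes were called higher and 28.4% in either direction. The median change of the 11 was 0.24 at 24 h against 0.01 over all genes.

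CXCL8, the neutrophil chemokine also known as interleukin 8, was low in vehicle and rose at 50 µM at 24 h. The gene lies at chr4:73740569-73743716. CXCL8 had 0, 8 and 9 counts in vehicle at 24 h, or 0, 2.88 and 2.65 CPM. It had 2, 10 and 7 counts with 25 µM PFOS, or 1.44, 2.7 and 4.4 CPM. It had 19, 19 and 22 counts with 50 µM, or 19.7, 20.5 and 11.2 CPM. The 50 µM libraries stood apart from all others at that time, and the 25 µM libraries overlapped vehicle. CXCL8 rose by 2.76 ± 0.47 at 50 µM (adjusted p = 0.000231) and was higher at 50 than at 25 µM by 2.49 ± 0.46 (adjusted p = 0.00166). At 25 µM its change was 0.27 ± 0.57 (adjusted p = 0.959, 95% interval -0.92 to 1.45). Both calls at 50 µM held in every alternative in which the gene was tested. CXCL8 passed the count filter only through its 50 µM libraries, so it was tested because it was high there.

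After recovery CXCL8 had 5, 9 and 10 counts in vehicle (3.83, 2.36 and 4.58 CPM), 1, 17 and 1 after 25 µM (1.68, 3.8 and 1.08 CPM), and 6, 16 and 6 after 50 µM (6.98, 14.6 and 8.34 CPM). The 50 µM libraries again lay above the others. CXCL8 was higher after 50 µM by 1.59 ± 0.50 than in vehicle (adjusted p = 0.0210) and by 1.77 ± 0.53 than after 25 µM (adjusted p = 0.0215). The first was not called without vehicle replicate 2 (adjusted p = 0.0968) or 50 µM replicate 2 (adjusted p = 0.216), and the second not without 25 µM replicate 3 (adjusted p = 0.0590) or 50 µM replicate 2 (adjusted p = 0.223). A difference of the 50 µM effect between the times was not detectable at this depth (-1.17 ± 0.70, adjusted p = 0.251, 95% interval -2.62 to 0.28).

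CXCL1 and CXCL2, which lie on the same chromosome at chr4:73869393-73871308 and chr4:74097040-74099195, encode related chemokines, and how the counting divided reads between them is uncertain. The likeness of their transcripts was not measured. CXCL1 had 4, 5 and 5 counts in vehicle at 24 h (4.7, 1.8 and 1.47 CPM). It had 6, 12 and 5 with 25 µM (4.32, 3.24 and 3.14 CPM) and 6, 7 and 11 with 50 µM (6.21, 7.57 and 5.61 CPM). The 50 µM libraries lay above the others, with a change of 1.58 ± 0.54 against vehicle (adjusted p = 0.0451). This call sat at the threshold: it was lost with DESeq2 (adjusted p = 0.0513), with no filter (adjusted p = 0.0517), and without any single library of the 2 groups other than vehicle replicate 1 (adjusted p from 0.0889 to 0.209). After recovery CXCL1 stood at 2.3, 4.45 and 3.2 CPM in vehicle, 6.71, 6.03 and 9.72 CPM after 25 µM and 3.49, 14.6 and 19.4 CPM after 50 µM. CXCL1 was called at 50 µM (1.76 ± 0.46, adjusted p = 0.00653), although replicate 1 fell inside the vehicle range, and the call was lost without replicate 2 (adjusted p = 0.0526) or replicate 3 (adjusted p = 0.0562). CXCL1 passed the count filter only through recovery libraries after PFOS, so it was tested because it was high there. The 25 µM libraries all lay above vehicle, but CXCL1 was not called there (0.95 ± 0.46, adjusted p = 0.710).

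CXCL2 was below the filter. It had 0, 3 and 3 counts in vehicle at 24 h, 1, 2 and 3 with 25 µM, and 9, 8 and 14 with 50 µM. The last correspond to 9.31, 8.65 and 7.14 CPM, a mean of 8.37 ± 1.12 against 0.655 ± 0.576 CPM in vehicle (SD, n = 3). In a fit with no filter, over 17953 genes, CXCL2 rose at 50 µM by 3.16 ± 0.69 (adjusted p = 0.000137) and was higher at 50 than at 25 µM by 3.03 ± 0.69 (adjusted p = 0.000715). That fit treated the spread of each gene as known, so its p-values are not comparable with those of the main fit. For PTX3 at 50 µM and 24 h it gave an adjusted p of 4.95e-61, against 2.08e-10 in the main fit. After recovery CXCL2 had 2, 4 and 1 counts in vehicle, 0, 3 and 1 after 25 µM and 2, 7 and 2 after 50 µM. The change after 50 µM was 1.95 ± 0.80 (adjusted p = 0.0787).

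CCL2, the monocyte chemokine at chr17:34255285-34257203, went the other way at 50 µM, on very few counts. CCL2 had 2, 3 and 9 counts in vehicle at 24 h, 5, 4 and 2 with 25 µM, and 0 in all 3 libraries with 50 µM. A floor of 3 counts over the 50 µM group, equal to 0.779 CPM, lay 2.56-fold below the pooled vehicle level of 1.99 CPM. That vehicle level rests on 14 counts and its own error is not covered, so 2.56 is not a lower limit of the difference. The fit with no filter called the difference (adjusted p = 0.0269), and also the difference between the 24 h and recovery effects (adjusted p = 0.0157). Both p-values carry the limit of that fit given for CXCL2, and both rest on a group with 0 counts. After recovery the counts were 1, 7 and 2 in vehicle, 0, 7 and 3 after 25 µM and 0, 6 and 2 after 50 µM, with all groups overlapping.

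**Figure D2:**
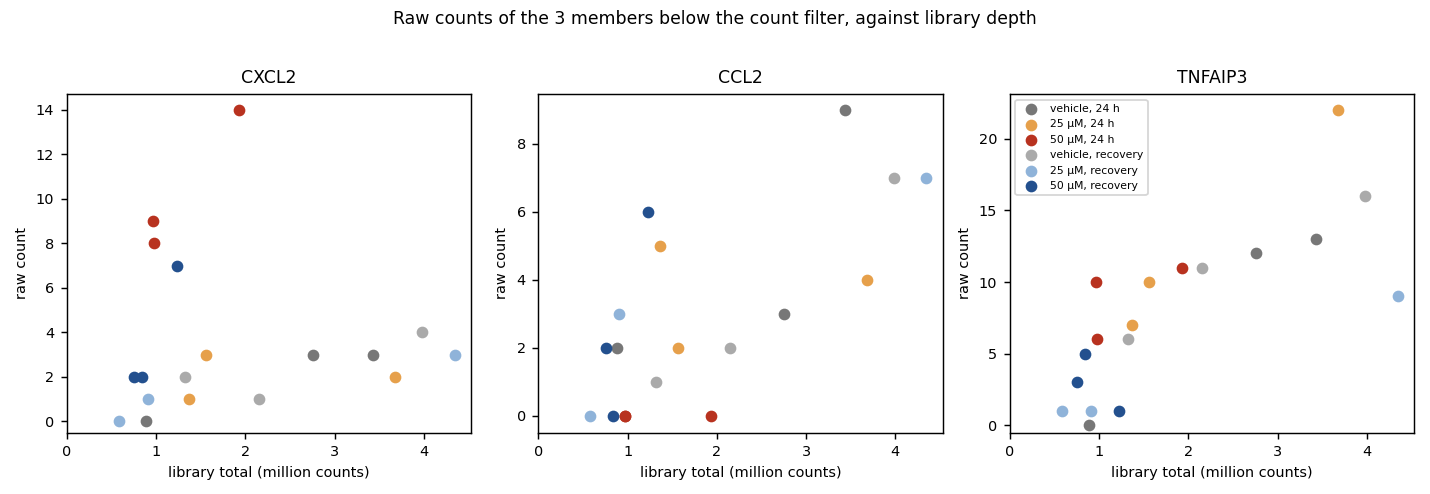
Raw count (y axis) against the total counts of the library (x axis) for CXCL2, CCL2 and TNFAIP3, with 1 point per library coloured by group. The 3 libraries of 50 µM PFOS at 24 h have 8 to 14 counts of CXCL2, where the vehicle libraries of that time have at most 3, and 0 counts of CCL2, with 2 of these points on top of each other.

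IL6, the pleiotropic cytokine at chr7:22727200-22731998, was low throughout. IL6 had 3, 22 and 14 counts in vehicle at 24 h (3.53, 7.93 and 4.12 CPM), 4, 18 and 3 with 25 µM (2.88, 4.86 and 1.89 CPM), and 12, 10 and 25 with 50 µM (12.4, 10.8 and 12.7 CPM). All 50 µM libraries lay above all others of that time. Without its 50 µM libraries IL6 would not have reached the count filter. The change against vehicle was 1.13 ± 0.41 and just missed the threshold (adjusted p = 0.0581), while IL6 was higher at 50 than at 25 µM by 1.74 ± 0.43 (adjusted p = 0.0164). The first passed in a fit restricted to the libraries of the contrast (adjusted p = 0.0235) and without vehicle replicate 2 (adjusted p = 0.0364), and the second was lost without 25 µM replicate 1 or 3 or 50 µM replicate 1 or 3 (adjusted p from 0.0515 to 0.0734). After recovery IL6 stood at 5.36, 4.45 and 4.58 CPM in vehicle, 8.38, 5.36 and 4.32 CPM after 25 µM and 3.49, 16.4 and 8.34 CPM after 50 µM. The groups overlapped, and neither change passed (0.25 ± 0.45, adjusted p = 0.964 and 1.06 ± 0.46, adjusted p = 0.0859). With 1 library left out, the change after 50 µM ran from 0.28 to 1.45 and was called without 50 µM replicate 1 (adjusted p = 0.0116).

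Of the NF-kB induced genes, NFKBIA and SOD2 were tested and not called at 24 h, while TNFAIP3 did not reach the filter. NFKBIA (chr14:35401513-35404749), whose protein holds NF-kB in the cytoplasm, stood at 23.5, 16.2 and 23.6 CPM in vehicle at 24 h. It stood at 14.4, 14.6 and 24.5 CPM with 25 µM and at 19.7, 17.3 and 22.4 CPM with 50 µM. The groups overlapped throughout, and the change at 50 µM was -0.04 ± 0.27 (adjusted p = 0.943, 95% interval -0.60 to 0.52). In recovery NFKBIA stood at 20.7, 22.8 and 21.1 CPM in vehicle, 33.5, 25.7 and 17.3 CPM after 25 µM and 20.9, 33.7 and 26.4 CPM after 50 µM, again overlapping (0.34 ± 0.27 at 50 µM, adjusted p = 0.373). NFKBIA was called in 0 of the 9 comparisons.

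TNFAIP3 (chr6:137866349-137883312), which encodes the ubiquitin editing enzyme A20, was below the filter. It had 0, 12 and 13 counts in vehicle at 24 h (0, 4.32 and 3.83 CPM), 7, 22 and 10 with 25 µM (5.04, 5.94 and 6.29 CPM) and 10, 6 and 11 with 50 µM (10.3, 6.49 and 5.61 CPM). Both PFOS groups lay above vehicle, but neither change passed in the fit with no filter (0.76 ± 0.48, adjusted p = 0.849 and 1.03 ± 0.51, adjusted p = 0.215). After recovery it had 6, 16 and 11 counts in vehicle, 1, 9 and 1 after 25 µM and 5, 1 and 3 after 50 µM. The 25 µM libraries lay below vehicle there, at -1.27 ± 0.59, which missed the threshold (adjusted p = 0.714).

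SOD2 (chr6:159669069-159762281), which detoxifies mitochondrial superoxide, was higher after recovery from 50 µM and not at 24 h. SOD2 stood at 14.1, 21.3 and 17.7 CPM in vehicle at 24 h, 20.9, 18.6 and 16.4 CPM with 25 µM and 16.6, 14.1 and 17.8 CPM with 50 µM. These groups overlapped, and the change at 50 µM was -0.16 ± 0.30 (adjusted p = 0.769). After recovery it stood at 15.3, 21.5 and 20.6 CPM in vehicle, 18.4, 25.7 and 27 CPM after 25 µM and 29.1, 63.8 and 27.8 CPM after 50 µM. The 50 µM libraries lay above all others, with replicate 2 far above the other 2 of its group. SOD2 was higher after 50 µM by 1.08 ± 0.27 (adjusted p = 0.00523), and the recovery effect exceeded the 24 h effect by 1.24 ± 0.40 (adjusted p = 0.0367). Without 50 µM replicate 2 both calls were lost (0.53 with adjusted p = 0.189, and 0.69 with adjusted p = 0.213), and the second was lost also without any 1 of 6 other libraries, namely vehicle replicate 2 or 3 or any 50 µM replicate at 24 h, or vehicle replicate 1 at recovery (adjusted p from 0.0594 to 0.110). Both calls were lost as well with thinned libraries (adjusted p = 0.0825 and 0.591) and with only the libraries of the contrast (0.0875 and 0.0870).

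**Figure D3:**
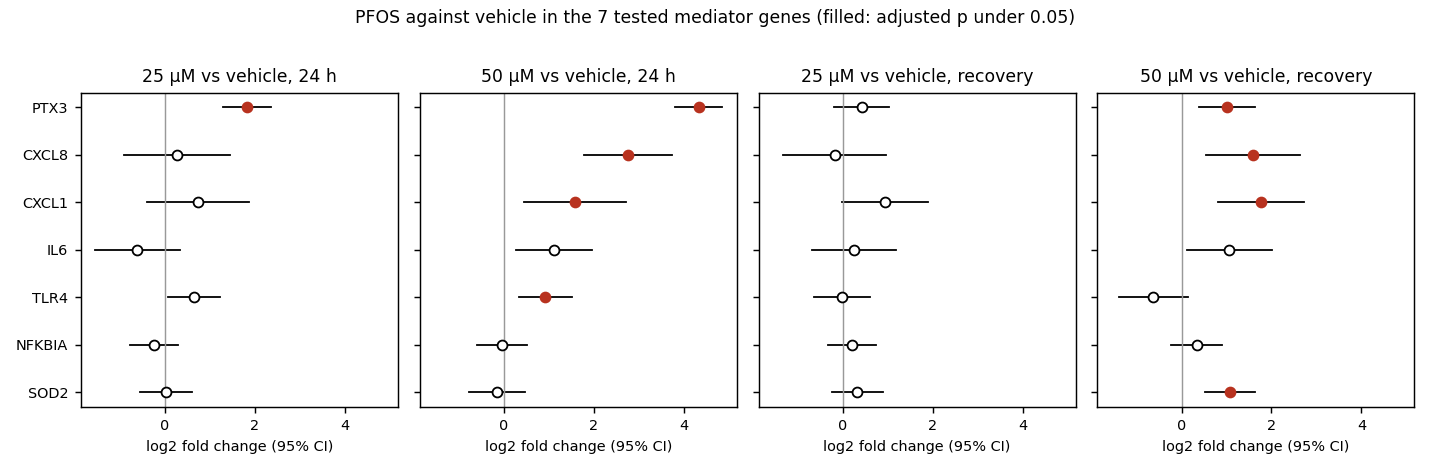
Log2 change against the vehicle group of the same time (x axis) with its 95% interval for the 7 tested genes (y axis), at 25 and 50 µM PFOS, at 24 h and after recovery. Filled points passed at an adjusted p under 0.05. PTX3 at 50 µM and 24 h lies at 4.34, and SOD2 passed after recovery at 1.08 but not at 24 h.

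Counted together, 4 of the 7 tested members were called higher at 50 µM and 24 h (PTX3, CXCL8, CXCL1 and TLR4) and 0 lower. Over all 9847 genes, 9.18% were called higher, 9.59% lower and 18.8% in either direction. CXCL8 reached the filter only through 50 µM libraries, CXCL1 only through recovery libraries after PFOS, and IL6 would not have reached it without its 5 libraries at 50 µM. These genes entered the test because they were high there, and nothing is read from these counts. At 25 µM and 24 h only PTX3 was called, 1 of 7 (0.782% of all genes higher, 1.24% in either direction). After recovery from 25 µM 0 of 7 passed, with edgeR and with DESeq2, and 0 of the 7 had an unadjusted p under 0.05. There edgeR called 0% of all genes and DESeq2 called 1 gene, while 693 genes had an edgeR p under 0.05 before adjustment. After recovery from 50 µM 4 of 7 were higher (PTX3, CXCL8, CXCL1 and SOD2), against 17.7% of all genes higher and 28.4% in either direction. Between the doses, 3 of 7 were higher at 50 µM at 24 h (PTX3, CXCL8 and IL6), where 3.79% of all genes were higher, 3.62% lower and 7.4% either. After recovery 1 of 7 was higher (CXCL8), against 14.7% of all genes higher, 7.38% lower and 22.1% either. The 50 µM effect differed between the times in 3 of 7, with PTX3 and TLR4 lower in recovery (7.42% of all genes) and SOD2 higher (11.6% of all genes, 19.1% in either direction), and the 25 µM effect in 0 of 7 with edgeR and DESeq2, with 1, PTX3, at an unadjusted p under 0.05 (0.0203% of all genes called in either direction). Between the 2 vehicle groups 0 of 7 were called with either tool, and 0 had an unadjusted p under 0.05, with changes from -0.23 to 0.78, where 0.975% of all genes were called. Comparisons of 25 and 50 µM with vehicle at 1 time share the vehicle libraries.

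The recovery group after 50 µM stood apart in other ways. Its replicates 1 to 3 had 2.94%, 7.58% and 5.03% of their counts in 86 ribosomal protein genes, against 1.21% to 2.43% in the other 15 libraries. Replicate 2 had the highest level of its group for PTX3, CXCL8, CXCL2, IL6, CCL2, NFKBIA and SOD2. Without it, 0 of the 7 members were called after recovery from 50 µM, and the PTX3 change was 0.60 (adjusted p = 0.254) and that of CXCL8 1.16 (adjusted p = 0.216). PTX3 and SOD2 also missed the threshold there when the fit held only the libraries of the contrast (adjusted p = 0.109 and 0.0875), while CXCL8 and CXCL1 did not pass the filter in that fit and were not tested. The part of the ribosomal protein share in these results was not tested.

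Levels of cell type markers moved as well at 24 h. The summed level of the fibroblast and pericyte markers was 2415 to 2776 CPM with 25 µM and 1258 to 1368 CPM with 50 µM, against 2979 to 3160 CPM in vehicle. Of the microglia and macrophage list, the lysosomal protein CD68 went the other way, at 53 to 78.5 CPM with 50 µM against 17.6 to 20.6 CPM in vehicle, and at 49.2 to 59.3 CPM against 15.6 to 26.8 CPM after recovery. After recovery the fibroblast list stood at 2256 to 3115 CPM in vehicle and 1505 to 2015 CPM after 50 µM. This sum hides members that went different ways. In 50 µM replicate 2 after recovery, S100A6 stood at 966 CPM, its highest level in any library. COL1A1 and COL1A2 were at their lowest there, at 139 and 66.5 CPM. Means over all libraries were 143 CPM for S100A6, 1227 CPM for COL1A1 and 218 CPM for COL1A2. The endothelial markers summed to at most 3.53 CPM in any library, and 6 of 7 T cell and neutrophil markers had no count in any. Whether these markers had a part in the changes of the inflammatory genes was not tested.

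Of 25 NF-kB subunits, kinases and inhibitors, 20 were tested, and at 50 µM and 24 h 2 rose and 2 fell, a share close to the 18.8% called over all genes. NFKBIZ, an atypical nuclear IkB protein that promotes a subset of NF-kB targets, rose by 1.45 ± 0.30 from 23.8 ± 7.66 to 63.1 ± 12.4 CPM (adjusted p = 0.00151). CYLD, a deubiquitinase that restrains the pathway, rose by 0.76 ± 0.19 (adjusted p = 0.00599). CHUK, the kinase IKKα, fell by 0.91 on the log2 scale (SE 0.22, adjusted p = 0.00509), and MAP3K14, the NF-kB inducing kinase NIK, by 0.95 (SE 0.33, adjusted p = 0.0480). The MAP3K14 call was lost in 9 of 13 alternatives. The median of the 20 genes was 0.12. In recovery from 50 µM, 0 rose and 1 fell, the TAK1 binding protein TAB1 (-1.08 ± 0.34, adjusted p = 0.0206), against 28.4% of all genes called. TAB1 was lost in 5 of 12 alternatives, namely without vehicle replicate 1 (adjusted p = 0.0655) or 2 (0.0532) or 50 µM replicate 2 (0.190, with a change of -0.56), with thinned libraries (0.105) and with only the libraries of the contrast (0.222).

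Of 30 further NF-kB inducible genes, 14 were tested, of which 4 rose and 0 fell at 50 µM and 24 h, with a median of 0.38, where 9.18% of all genes rose and 9.59% fell. Among them were SQSTM1, the autophagy receptor p62 (1.56 ± 0.17, adjusted p = 1.16e-06), IER3, an early response gene linked to survival (1.29 ± 0.19, adjusted p = 3.65e-05), and the co-stimulatory receptor CD40 (0.56 ± 0.16, adjusted p = 0.0165). The CD40 call was lost with no filter (adjusted p = 0.0788) and without vehicle replicate 2 (0.113) or 50 µM replicate 1 (0.0616) or 2 (0.0501). SQSTM1 was the only gene of the 5 pathway lists called at 25 µM (0.81 ± 0.17, adjusted p = 0.0146). After recovery from 50 µM, 3 were higher and 1 lower than vehicle, a share close to the 28.4% called over all genes. IER3 was higher by 0.99 ± 0.19 (adjusted p = 0.000486), PLAU, urokinase, by 1.04 ± 0.22 (adjusted p = 0.00125) and SQSTM1 by 0.63 ± 0.17 (adjusted p = 0.00831), while BIRC2, the ubiquitin ligase cIAP1, fell by 0.67 (SE 0.20, adjusted p = 0.0151). PLAU was itself lower in vehicle after recovery than at 24 h (-0.92 ± 0.21, adjusted p = 0.0398), with means of 139 CPM in vehicle at 24 h, 73.2 CPM in vehicle after recovery and 151 CPM after 50 µM. SQSTM1 was not called there without 50 µM replicate 3 (adjusted p = 0.0559), thinned (0.109) or with only the libraries of the contrast (0.124), and PLAU not in that last fit (0.0520). BIRC2 was not called without vehicle replicate 3 (0.0655), without 50 µM replicate 1 (0.0523) or 3 (0.0548), or with only the libraries of the contrast (0.163). Typical inducible genes were too low to test, with 6 counts of PTGS2 and 48 of ICAM1 over all libraries.

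Of 30 other cytokines and chemokines, only 4 passed the filter. TNF had 8 counts over all libraries, IL1B 26 and CXCL3 35. IL15, a cytokine that supports lymphocytes, fell by 1.33 at 50 µM and 24 h (SE 0.41, adjusted p = 0.0264), and was the 1 gene of the 4 called there. Its call was lost without vehicle replicate 2 or 3 or 50 µM replicate 1 or 3 (adjusted p up to 0.117) and with thinned libraries (0.0585). None of the 4 was called in recovery from 50 µM. Over all genes, 18.8% were called in either direction at 50 µM and 24 h, and 28.4% in recovery from 50 µM. These shares apply also to the list that follows, and nothing is read from counts this small. Of 12 other pentraxins and soluble pattern recognition genes, 2 were tested. The neuronal pentraxin NPTX1 fell by 1.44 at 24 h (SE 0.38, adjusted p = 0.0114) and by 1.79 in recovery (SE 0.44, adjusted p = 0.00442) at 50 µM. The first call was lost without 50 µM replicate 1 (adjusted p = 0.0581) or 3 (0.103) and thinned (-0.77, adjusted p = 0.455), and the second with only the libraries of the contrast (0.0847). The lectin LGALS3, galectin-3, was higher in recovery from 50 µM (1.82 ± 0.32, adjusted p = 0.000275), from 20 ± 3.83 to 70 ± 37.6 CPM.

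**Figure D4:**
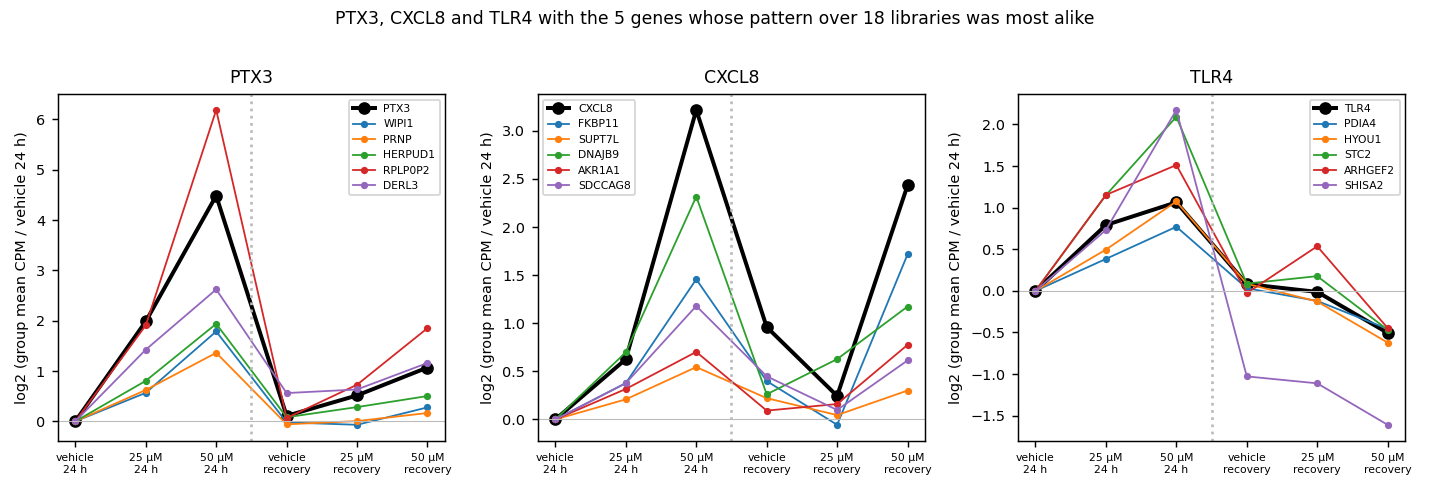
Log2 of each group's mean CPM relative to vehicle at 24 h (y axis) in the 6 groups (x axis), for PTX3, CXCL8 and TLR4 (black) and the 5 tested genes most like each (colours). The 5 genes beside PTX3 are highest at 50 µM and 24 h, and those beside TLR4 are highest there and lowest after recovery from 50 µM.

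Among 9765 tested genes, the pattern of log2 CPM over the 18 libraries that was most like that of PTX3 belonged to WIPI1, an autophagy protein that binds phosphoinositides (Pearson r = 0.975). PRNP, the prion protein (0.969), HERPUD1, a component of endoplasmic reticulum associated degradation (0.959), the ribosomal protein pseudogene RPLP0P2 (0.949), whose reads may be shared with its parent gene, and DERL3 (0.949) followed. For CXCL8 they were FKBP11 (0.880), SUPT7L (0.874), DNAJB9 (0.872), AKR1A1 (0.863) and SDCCAG8 (0.862). For TLR4 they were PDIA4, a disulfide isomerase of the endoplasmic reticulum (0.896), the chaperone HYOU1 (0.876), STC2 (0.871), ARHGEF2 (0.865) and SHISA2 (0.863). PDIA4 shared the turn of TLR4, with group means of 435, 567 and 742 CPM at 24 h and 444, 400 and 317 CPM after recovery in order of dose. Among the members themselves, PTX3 correlated with CXCL8 (0.72) and TLR4 (0.70), CXCL8 with IL6 (0.68), and TLR4 with SOD2 negatively (-0.58). These values describe 18 libraries that share 6 groups and their depth, so 1 group that stands apart, such as 50 µM at 24 h, can set them.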

How the data were processed

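The values are the authors' raw read counts for each gene symbol in 18 RNA-seq libraries, deposited without normalization, per the file headers. Libraries followed a poly(A) Smart-seq2 workflow, per the labels' protocols, so counts carry neither strand nor molecular identifiers and floors cover counting error only. Trimmomatic, STAR, DESeq2 and GRCh38 are named in the submitters' processing notes. Their versions, the counter and the annotation were not given in the sources used here. The 18 H3K27ac libraries were not analysed here. All columns matched 1 library (0 left over).

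Genes were kept by filterByExpr (minimum count 10), leaving 9847 with 99.2% of counts. Libraries were scaled by TMM and fitted in 1 edgeR 4.0.16 quasi-likelihood model (R 4.3.3) with 6 group means, for 9 contrasts. P-values are two-sided, adjusted by Benjamini-Hochberg over all genes, threshold 0.05. The code was tested on simulated data. Alternatives were DESeq2 1.42.0, RLE scaling, no filter, a replicate block, thinning, fewer groups in the fit and leaving out each library. Those for pathway genes were added after seeing the data. All 10 members are named, with list genes called at 50 µM (up to 6 per list and contrast) and the 5 genes most correlated with PTX3, CXCL8 and TLR4 (among genes with at least 5 CPM in a group, prior count 2). The members and lists were chosen with earlier results of these data known. Low genes named by their raw counts alone were picked after seeing them. Positions and promoters come from RefSeq (GRCh38.p14). Some genes of the lists are counted but not reported here by name.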

Additional observations from a re-analysis of the deposited data

Results flagged for a closer look

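The 50 µM effect differed between 24 h and recovery for 3 of the 7 tested genes, by a test of the difference in the edgeR fit. For PTX3 the effect was smaller in recovery by 3.32 on the log2 scale (-3.32, adjusted p = 1.39e-05). For TLR4 the difference was -1.55 (adjusted p = 0.0236), and for SOD2 it was 1.24 in the other direction (adjusted p = 0.0367). The difference for PTX3 was called in every alternative run, with adjusted p of at most 0.000390, whereas those for TLR4 and SOD2 reached adjusted p of 0.0846 and 0.591 in the alternative least favourable to each.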

How the results depend on the processing

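Over all alternatives, the 16 called member values kept direction and call in 163 cases and lost the call, with the same direction, in 43. The 47 member values that were not called stayed so with the same sign in 571 cases, changed sign in 42 and became called in 10. Calls of the 19 pathway gene values were kept in 193 cases and lost in 45. With libraries thinned to the shallowest, fewer genes passed the filter, and 1 member was called at 50 µM and 24 h, 0 in recovery from 50 µM, 1 for 50 against 25 µM at 24 h, 0 for it after recovery, and 1 for the difference between times at 50 µM. With only the libraries of the contrast, 0 members were called in recovery for 50 µM against vehicle and 0 against 25 µM, and DESeq2 also gave 0 for the latter. Whether replicate numbers pair the samples was not settled. For 50 µM and vehicle in recovery, same-number correlations were 0.39, 0.25 and -0.16, against -0.12, 0.19 and 0.16 for the best other number. Of the other group comparisons, the same number was higher only for replicate 2 of 25 µM against vehicle at 24 h (0.039 against -0.0042). The replicate block gave 2 called members for 50 against 25 µM after recovery, with SOD2 added (adjusted p = 0.0462), called IL6 at 50 µM and 24 h (adjusted p = 0.0411), and left CXCL1 (0.0554) and MAP3K14 (0.0538) and NLRP3 (0.0547) uncalled there.

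Leaving out 1 library at a time, members called ranged from 2 to 4 at 50 µM and 24 h, 0 to 5 in recovery from 50 µM, 2 to 3 for 50 against 25 µM at 24 h, 0 to 4 for it after recovery, and 1 to 3 for the difference between times at 50 µM. Values that changed sign, all uncalled, then ranged as follows. At 25 µM and 24 h, CXCL8 ran from -0.033 to 0.48 and SOD2 from -0.051 to 0.17. NFKBIA at 50 µM and 24 h ran from -0.23 to 0.097. At 25 µM in recovery, CXCL8 ran from -1.31 to 0.085 and TLR4 from -0.24 to 0.13. NFKBIA for 50 against 25 µM after recovery ran from -0.089 to 0.28. For the difference between times, CXCL1 ran from -0.11 to 0.56 at 25 µM and from -0.19 to 0.60 at 50 µM, and IL6 from -0.84 to 0.33 at 50 µM. Between the vehicle groups, PTX3 ran from -0.17 to 0.27, IL6 from -0.48 to 0.24, TLR4 from -0.12 to 0.28, NFKBIA from -0.12 to 0.20 and SOD2 from -0.0027 to 0.24. Under other settings, TLR4 turned to 0.0043 (RLE), 0.0085 (DESeq2) and 0.14 (thinned) between the vehicle groups, and to 0.019 (no filter) and 0.0063 (without the 50 µM recovery group) at 25 µM in recovery. Thinned libraries also turned SOD2 to 0.39 at 50 µM and 24 h and 0.26 for 50 against 25 µM, NFKBIA to -0.29 there, and PTX3 to 0.14 and NFKBIA to -0.18 between the vehicle groups. The cause of these changes was not tested.

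Genes called over the whole table also depended on the setting. At 50 µM and 24 h there were 1848 (1139 to 1707 with 1 library left out, 1152 to 2860 under other settings). In recovery from 50 µM there were 2800 (1600 to 4074 and 864 to 3063). At 25 µM and 24 h there were 122 (49 to 75 and 58 to 416). For 50 against 25 µM there were 729 at 24 h (347 to 541 and 448 to 1932) and 2172 after recovery (931 to 3766 and 0 to 2481). For the difference between times at 50 µM there were 1878 (1188 to 3314 and 1022 to 2141). The low totals limit CXCL8, CXCL1, CXCL2, CCL2, IL6 and TNFAIP3 most, which had at most 27 counts in a library.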
